A study of Rattus norvegicus with 6 samples.

Results

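Whole rat liver after ischemia reperfusion (IR) was compared between animals given etanercept plus nitroglycerin (treated IR) and animals with IR alone. The comparison rests on 2 of the 6 libraries of the series, chosen by their labels. In the surgical model the portal vein was clamped for a time and blood flow was then restored. In treated animals, etanercept (9 mg/kg) preceded IR by 16 to 18 h, and nitroglycerin (6 µg/kg/min) was infused before and during it. Both liver groups therefore underwent IR, and whether the extent of injury differed between them was not tested. Both drugs were given together, so the effect of either drug cannot be told apart from that of the other. Another liver group was healthy and untreated, and the labels name no sham operation. RNA was taken 1 day after IR and pooled from 3 animals into 1 library per group. The same 3 conditions were also read in hepatocytes freshly isolated from additional animals. The labels used here give no strain, sex, age or clamping time.

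Etanercept is a fusion protein of a tumor necrosis factor (TNF) receptor and an antibody fragment that binds TNF before it can reach receptors on cells. In injured liver TNF comes largely from resident macrophages, acts through NF-kB on endothelial cells and hepatocytes, and helps to draw in neutrophils. Nitroglycerin is converted to nitric oxide, which raises cyclic GMP in smooth muscle and stellate cells and widens vessels. Whole liver holds hepatocytes, which supply most of its RNA, together with endothelial cells, macrophages, stellate cells, bile duct cells and blood cells. Isolation of hepatocytes by collagenase perfusion removes most of the other cells.

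The deposited files name genes by Ensembl ID only. Of 26689 IDs, 0 matched a symbol in the reference table, so no pathway, cell type marker or drug target could be read by name, and the labelled tissue could not be checked against its markers. Genes are therefore described by their levels and by how they stood in the other libraries, and 4 are printed by ID.

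The liver IR library held 7160610 reads in genes and the treated IR library 6059666, against 1945331 in liver control. The hepatocyte libraries held 2716994 to 5335184. Alignments placed at more than 1 site, which were not counted in genes, made up 60.1% of the total in the IR liver and 41.1% in the treated liver. In the other 4 libraries they made up 43.7% to 46.3%. The liver IR library thus stood apart in this measure. Liver control and hepatocyte IR stood apart in another. A set of 31 genes was at least 4-fold lower in liver control than in liver IR, liver treated IR and hepatocyte control, with medians of 2.18, 22.5, 21.9 and 41.0 CPM (counts scaled to a common library size) in that order. Hepatocyte IR was not used to choose them, and their median was 7.35 CPM there and 31.6 CPM in hepatocyte treated IR. These 31 genes had a median log2 ratio of treated IR to IR of -0.09 in liver. By the 2-fold rule given below, 0 of the 31 were higher and 2 of the 31 lower, beside 1.5% and 0.599% of all genes. These counts are too small to compare with the background shares. The 31 genes thus held 0 of the 130 higher and 2 of the 52 lower genes of the liver comparison. Of the 31 genes, 16 were also at least 4-fold lower in hepatocyte IR than in hepatocyte control. Whether liver control and hepatocyte IR match their labels was not tested. Hepatocyte control is therefore set beside hepatocyte IR in the hepatocyte results.

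Most genes stood at similar levels in the treated and untreated IR livers. A total of 8676 genes had 50 or more reads over the 2 libraries and held 99.4% of gene reads in liver IR and 99.2% in its treated counterpart. Their log2 ratio of treated IR to IR had a median of -0.0094 and an interquartile range of -0.19 to 0.19. Ratios were scaled by TMM, which sets the bulk of genes to equality. Each ratio has a 95% Clopper-Pearson interval. Without molecular identifiers, such an interval covers only the error of counting. For 4097 genes (47.2%) this whole interval lay within 1.5-fold of equality. With 1 pooled library a side there is no replicate check and no p-value, and higher and lower describe these libraries.

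A gene was called apart when it differed at least 2-fold and its counting interval excluded equality. By this rule 182 of 8676 genes (2.1%) were apart. Of these, the treated library was higher for 130 (1.5%) and lower for 52 (0.599%). With library totals alone in place of TMM the median ratio moved by 0.38 on the log2 scale, and the numbers were 438 higher and 12 lower, or 97.3% higher in place of 71.4%. Large ratios were nearly all upward. At least 4-fold, 27 genes were higher and 1 lower, and 9 genes were at least 8-fold higher and 0 lower. In pooled whole liver, a change in the number of cells of a type and a change in RNA per cell cannot be told apart.

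The higher genes were mostly of low abundance. Their median was 9.21 CPM in the treated liver (interquartile range 6.44 to 17.9) and 3.26 CPM in the IR liver (2.37 to 6.78). Liver control stood at 3.49 CPM (2.18 to 7.86). Hepatocyte medians of the same 130 genes were 1.86 CPM (control), 1.74 CPM (IR) and 1.39 CPM (treated IR). All 8676 genes had a median of 15.6 CPM in the IR liver and 15.8 CPM in the treated liver. The median number of reads over both liver libraries was 87.5 for the higher genes, 106.5 for the lower genes and 224 for all.

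The lower genes spanned a wider range of levels. Their median was 4.34 CPM in the treated liver (3.07 to 27.6) and 11.2 CPM in the IR liver (7.63 to 63.6). Liver control stood at 9.38 CPM (4.80 to 41.7). Hepatocyte medians were 6.83 CPM (control), 10.8 CPM (IR) and 9.98 CPM (treated IR). The control libraries share no reads with the pair compared, but a gene called because the IR library was low or high also stands apart from control, so these levels are given side by side and not as a test.

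**Figure D1:**
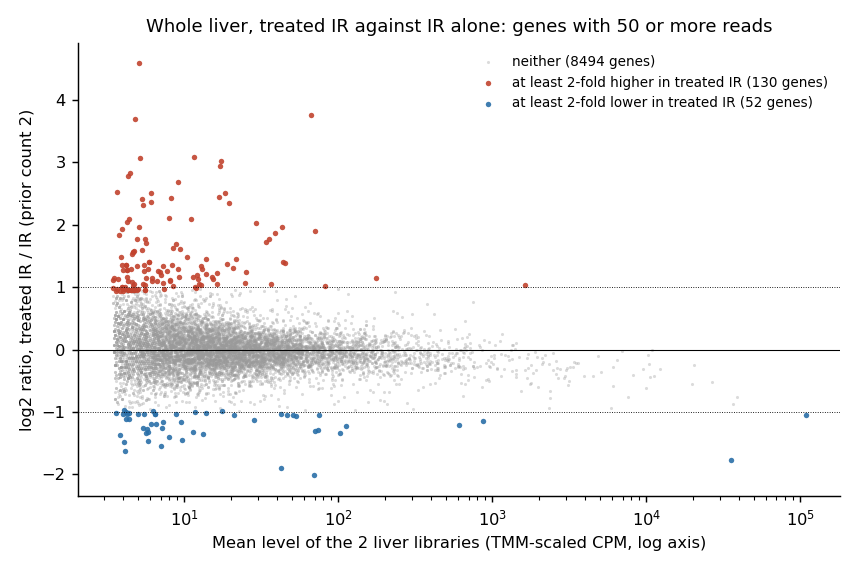
Each point is a gene with 50 or more reads in the treated and untreated IR livers. The x axis gives its mean level (TMM-scaled CPM, log axis) and the y axis the log2 ratio of treated IR to IR with a prior count of 2. The 130 higher genes lie mostly at the low end of the x axis, and the cloud of all genes bends below 0 at its right end.

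The genes that led the ranking were followed through all 6 libraries. The ranking takes the bound of the counting interval nearest to equality, so that well counted genes come first. ENSRNOG00000032626 led the higher genes. It had 75 reads in the treated liver, 1 in the IR liver and 0 in liver control, and 0 in each of the 3 hepatocyte libraries. All but 1 of its reads thus came from a single pool. Its ratio of treated IR to IR was 67.6 with an interval of 11.8 to 2700, and the width reflects the single read in liver IR. The 0 in liver control allows up to 1.31 CPM (3 reads), against 10 CPM in the treated liver.

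ENSRNOG00000001963 came second and was far better counted. The treated liver stood at 123 CPM (923 reads), the IR liver at 8.89 CPM (60 reads) and liver control at 35.4 CPM (81 reads). The treated liver was the highest of the 6 libraries and was 13.9-fold above liver IR (interval 10.7 to 18.3). In hepatocytes the order was opposite, with 8.36 CPM after treatment (18 reads), 27.7 CPM after IR alone (143 reads) and 24.8 CPM in control (80 reads). Hepatocyte IR was 3.31-fold above hepatocyte treated IR (interval 2.02 to 5.74). Set beside hepatocyte control in place of hepatocyte IR, the treated hepatocytes were also the lower.

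ENSRNOG00000027784 led the lower genes and was the 1 gene at least 4-fold lower (log2 ratio -2.02, or -1.63 with library totals). The treated liver stood at 27.5 CPM (206 reads), the IR liver at 112 CPM (757 reads) and liver control at 127 CPM (292 reads). Liver IR was 4.08-fold above liver treated IR (interval 3.49 to 4.78), with control at the level of IR. The hepatocyte levels were 44.1 CPM after treatment (95 reads), 232 CPM after IR alone (1199 reads) and 87.8 CPM in control (283 reads). The treated library was the lowest in both preparations, 5.26-fold below IR in hepatocytes (interval 4.26 to 6.55). This gene was already known from an earlier look at the same libraries, so its place here is not separate evidence.

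ENSRNOG00000047746 was the second of the lower genes and the fourth most abundant gene of the pair. Its share of gene reads was 1.98% in the treated liver, 5.15% in the IR liver and 2.24% in liver control. Here the untreated IR liver was the library that stood apart, and the treated liver was near control. On the TMM scale these were 16000, 54600 and 19000 CPM, and liver IR was 3.4-fold above liver treated IR (interval 3.38 to 3.43). Hepatocytes did not share this order. They had 27600, 15500 and 19800 CPM in control, IR and treated IR, a treated to untreated ratio of 1.27 (interval 1.26 to 1.29).

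**Figure D2:**
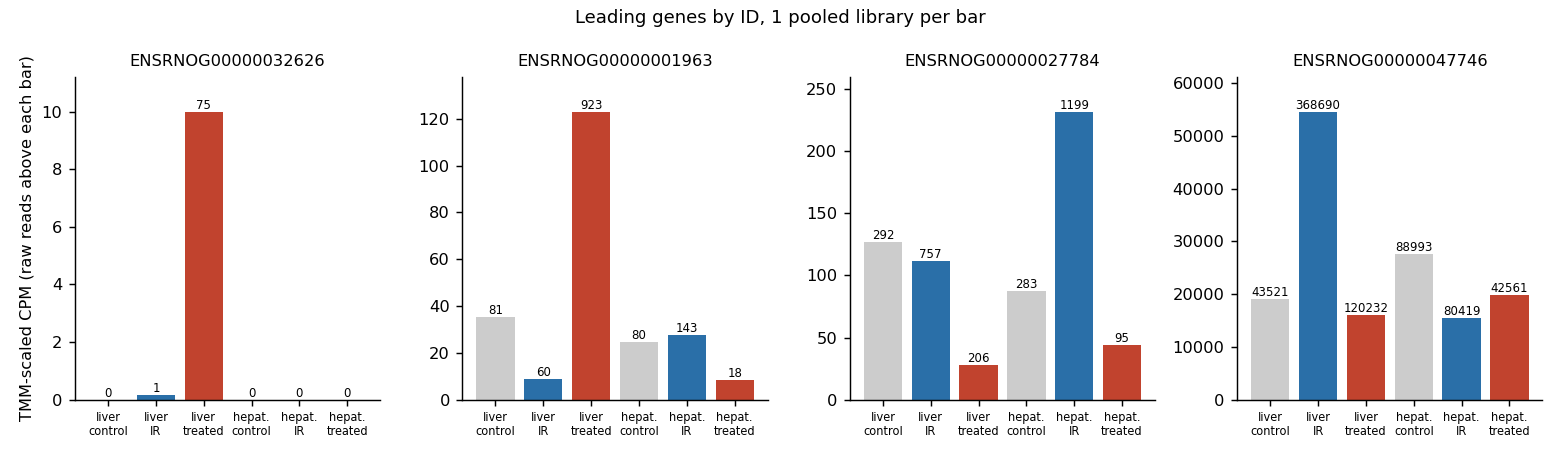
Bars give the level of the 4 genes printed by ID in each pooled library (TMM-scaled CPM, axis from 0, a separate scale per gene), with raw reads above each bar. ENSRNOG00000001963 peaks at 123 CPM in treated IR liver, ENSRNOG00000027784 is lowest in the treated library of both preparations, and ENSRNOG00000047746 peaks at 54600 CPM in untreated IR liver.

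The first 15 genes each way differed in how well they were counted. The 15 higher genes were 5.25-fold to 67.6-fold higher, with a median of 8.71-fold. They had 1 to 60 reads in the IR liver (median 15) and 58 to 923 in the treated liver (median 119). The 15 lower genes were 2.06-fold to 4.08-fold lower, with a median of 2.54-fold. They had 43 to 986159 reads in the IR liver (median 702) and 14 to 530560 in the treated liver (median 319). The larger ratios thus belonged to the higher genes, and the larger counts to the lower genes.

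**Figure D3:**
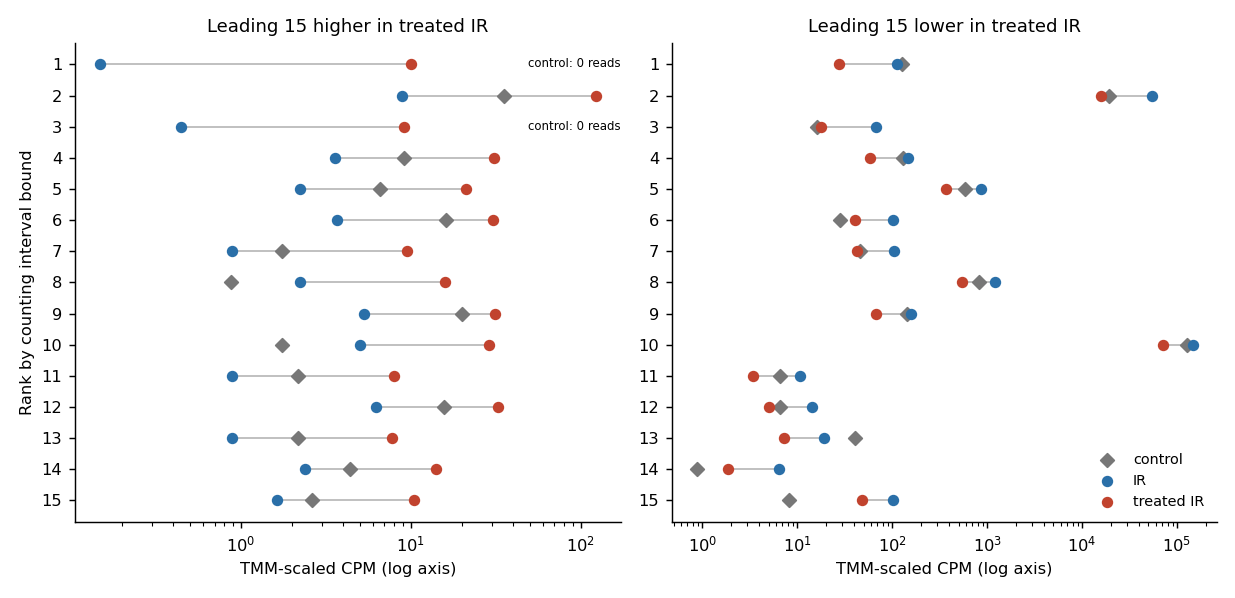
The first 15 higher and first 15 lower genes are shown by rank (y axis) with their TMM-scaled CPM (x axis, log scale) in liver control, IR and treated IR, each from 1 pooled library. Grey lines join IR and treated IR. The higher genes lie at or below 123 CPM in all 3 livers, while the lower genes reach 146000 CPM.

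Some genes were read in the treated liver and not at all in the untreated one. A total of 14 genes had 0 reads in liver IR and 10 or more in liver treated IR, with 10 to 46 reads each (median 15). The reverse held for 1 gene, which had 12 reads in liver IR. That library held more reads in genes, but 3 reads stood for 0.445 CPM there and 0.4 CPM in the treated liver. On the TMM scale the treated library was thus the deeper of the pair. Of the 14 genes, 6 had no read in any of the other 4 libraries either. The same share for other genes of that depth is not given here. For the best counted of the 14, with 46 reads, the treated level was at least 13.8-fold higher, taking 3 reads as the limit of a count of 0 in liver IR. Like ENSRNOG00000032626, such genes rest on a single pool of 3 animals, and how the reads divide among the animals is not known.

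The most abundant transcripts stood lower in the treated liver relative to other genes. Ranked by mean level over both libraries, the 10 most abundant genes took 38.8% of gene reads in the IR liver (95% Clopper-Pearson interval 38.7 to 38.8) and 28.4% in the treated liver (28.3 to 28.4). In liver control they took 29.2% (29.2 to 29.3). In this summed share the treated liver was near control, and the IR liver was above both. The nearness rests partly on the most abundant gene, which itself stood away from control. That gene took 8.76% in the treated liver, 13.8% in the IR liver and 14.9% in liver control. Liver control is also a library that stood apart above. The ranking did not use liver control, and single genes among the 10 stood otherwise, as given below. The 100 most abundant genes took 65.2% in the IR liver, 56.2% in the treated liver and 55.6% in liver control. These shares need no scaling between libraries. The 100 genes include the first 10, which already held the difference between the treated and untreated IR livers. With library totals alone, the median log2 ratio was 0.09 at ranks 11 to 30 and 0.12 at ranks 31 to 100.

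On the TMM scale the ratio fell stepwise with abundance. The 10 most abundant genes had a median log2 ratio of -0.53, the next 20 of -0.30, and those at ranks 31 to 100 of -0.27. At ranks 101 to 300 the median was -0.14, at 301 to 1000 it was -0.07, and at 6001 to 8676 it was 0.06. Of the genes at ranks 11 to 30, 20 of 20 lay below the median of all genes, and of those at ranks 31 to 100, 60 of 70 did. With library totals alone each median was higher, from -0.14 for the first 10 genes to 0.43 for the last group, so the sign for ranks 11 to 3000 depended on the scaling. The first 10 genes lay -0.52 from the median of all genes, a difference that a change of scaling cannot alter.

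Within the first 10 genes the shift was uneven. The most abundant gene took 8.76% of reads in the treated liver, 13.8% in the IR liver and 14.9% in liver control. Here the treated liver stood below both other livers, 2.06-fold below IR on the TMM scale. The third took 4.47% in the IR liver and 3.2% in the treated liver, both above the 1.06% of liver control. The tenth had a treated to untreated ratio of 0.997 (interval 0.987 to 1.01), so its scaled levels were equal within counting error. In hepatocytes the 10 genes had a median treated to untreated log2 ratio of 0.72, opposite to liver. With hepatocyte control in place of hepatocyte IR as the reference, the median was 0.23. The share of these 10 genes was 31.9%, 33.4% and 30.4% in hepatocyte control, IR and treated IR. The share of alignments at more than 1 site was also higher in liver IR (60.1% against 41.1%), and its part in the abundance pattern was not tested.

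**Figure D4:**
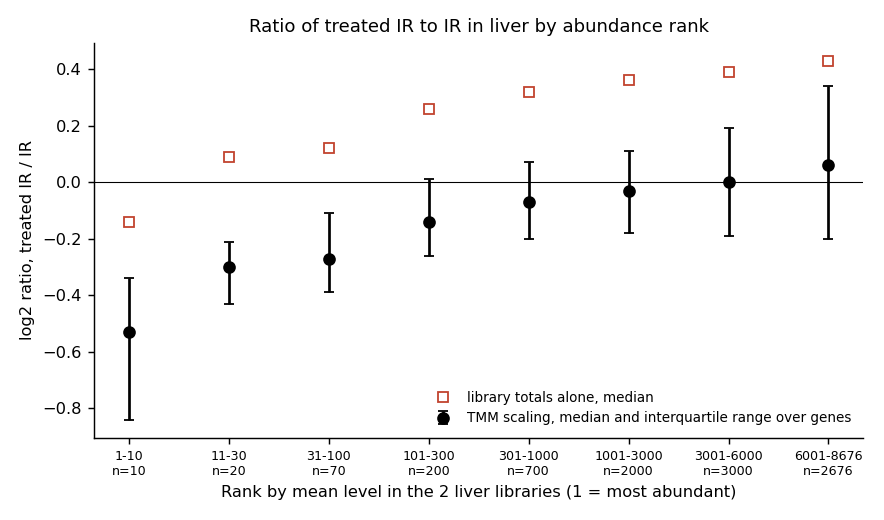
Filled points give the median log2 ratio of treated IR to IR in liver, with the interquartile range over genes, for groups of genes by abundance rank (x axis, with the number of genes). Open squares give the medians with library totals alone. The medians rise from -0.53 to 0.06 with TMM and from -0.14 to 0.43 with library totals.

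Genes lower in isolated hepatocytes than in whole liver held a larger share of genes that were higher in the treated liver. The control libraries, which share no library with the pair compared, were used to sort genes by preparation, and the sorting takes liver control as labelled although that library stood apart. Of the 8676 genes, 572 (6.59%) were at least 2-fold lower in control hepatocytes than in control liver, with a counting interval off equality, and 335 (3.86%) were higher by the same rule. Of the 572 genes, 40 (6.99%) were higher and 6 (1.05%) lower in treated IR liver, beside 1.5% and 0.599% of all genes. Of the 7769 genes in neither class, 83 (1.07%) were higher and 38 (0.489%) lower. Genes lower in control hepatocytes thus made up 30.8% of the 130 higher genes and 11.5% of the 52 lower genes.

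The shares were also larger within bands of abundance. Under 10 CPM, 7.30% of genes lower in control hepatocytes and 2.47% of genes in neither class were higher in the treated liver. At 10 to 30 CPM the shares were 6.56% and 0.529%, and over 30 CPM they were 6.76% (5 of 74 genes) and 0.247% (6 of 2425). Genes higher in control hepatocytes lay between these classes in each band. Their shares were 3.88% (4 of 103 genes), 2.13% (2 of 94) and 0.725% (1 of 138), from the lowest band to the highest. The genes at least 8-fold lower in control hepatocytes had 29 of 285 (10.2%) higher and 1 lower in the treated liver. Their median log2 ratio was 0.14 (interquartile range -0.14 to 0.53), beside -0.01 for all genes. Most of these genes were therefore close to equal, and 29 stood at least 2-fold higher.

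This pattern had limits in depth and in size. When 50 or more reads over both control libraries were also asked for, 4 of 145 genes (2.76%) lower in control hepatocytes were higher in the treated liver and 4 were lower, beside 22 of 5833 (0.377%) and 27 of 5833 (0.463%) of all such genes. At that depth the direction was even. Among all 2843 genes with fewer than 50 control reads, 108 (3.8%) were higher and 25 (0.879%) lower in the treated liver. Higher genes were thus more frequent at low control depth over all classes together, and the part of depth in the 6.99% was not tested. Summed over the 572 genes, the level was 11840 CPM in the IR liver and 11920 CPM in the treated liver, so the class as a whole stood at nearly the same level. It was 17380 CPM in liver control, 5119 in hepatocyte control, 11120 in hepatocyte IR and 5976 in hepatocyte treated IR. The hepatocyte IR library thus stood near the livers in this sum. Which cell types the 572 genes belong to cannot be read from the IDs.

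Genes higher in control hepatocytes than in control liver were apart more evenly in both directions. Of these 335 genes, the treated liver was higher for 7 (2.09%) and lower for 8 (2.39%), beside 1.5% and 0.599% of all genes. Their summed level was 149300 CPM in the treated liver, 195300 CPM in the IR liver and 62170 CPM in liver control. As shares of gene reads these were 18.5%, 18.4% and 7.32%. The difference between the treated and untreated IR livers in this sum thus depended on the scaling. In hepatocytes the sum was 227300 CPM in control, 284300 CPM after treatment and 76740 CPM after IR alone. The choice of the genes lowers liver control, but it did not use hepatocyte IR, which stood near liver control. The 335 genes had a median log2 ratio of treated IR to IR of -0.06 on the TMM scale. This was a smaller difference than that of the summed CPM, which weights abundant genes.

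**Figure D5:**
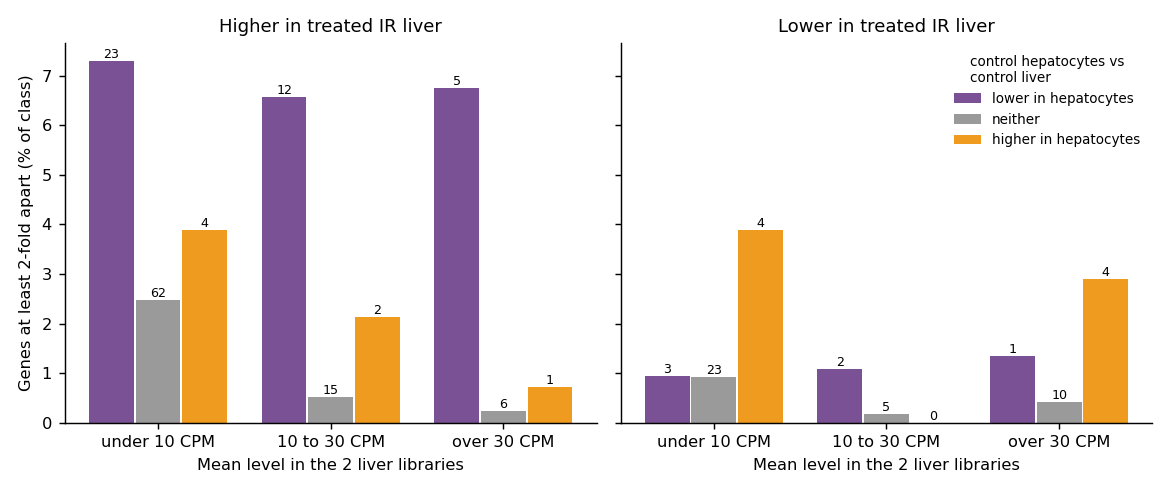
Bars give the percentage of genes at least 2-fold higher (left) or lower (right) in treated IR liver than in IR liver, by mean level (x axis) and by how control hepatocytes stood to control liver (colours), with the number of genes above each bar. Genes lower in control hepatocytes reach 6.56% to 7.30% higher at every level, against 0.247% to 2.47% of genes in neither class. Genes higher in control hepatocytes reach 0.725% to 3.88%.

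The genes apart in liver were then read in hepatocytes, whose libraries come from other animals. Of the 130 higher genes only 28 had 50 or more reads in the treated and untreated IR hepatocytes. Of these 28, 2 were higher and 6 lower in treated hepatocytes by the same rule (7.14% and 21.4%), beside 11.5% and 13.1% of all 6722 genes read in both preparations (11.5% and 13.3% of all 6749 genes read in hepatocytes, 24.8% in either direction). Their median log2 ratio in hepatocytes was -0.30 against -0.01 for all. The 2 genes are near the background share, and for 102 of the 130 genes depth allowed no reading.

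The 52 lower genes were better covered, with 34 read in hepatocytes. Of these, 11 (32.4%) were also lower and 5 (14.7%) higher in treated hepatocytes, beside 13.1% and 11.5% of all genes. The median log2 ratio was -0.61 (interquartile range -1.54 to 0.30). Setting aside the genes low in liver control left 33, with 11 lower and 4 higher. With hepatocyte control in place of hepatocyte IR, 24 genes could be read, and 2 were lower and 2 higher in treated hepatocytes, beside 3.73% lower and 3.69% higher of 5715 genes. Against hepatocyte IR these same 24 genes had 8 lower and 4 higher. Genes lower in treated hepatocytes thus outnumbered those higher there with hepatocyte IR as the reference and not with hepatocyte control. With hepatocyte control, 2 genes each way are too few to compare with the background shares. For the higher genes the same replacement left 20, with 2 higher and 3 lower under either reference.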

How the data were processed

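Poly(A)-selected RNA was sequenced on an Ion Torrent Proton instrument, per the labels' protocols. Raw counts of reads per gene, listed by Ensembl ID, were deposited for each library. The submitters' processing notes name TopHat2 2.0.13 and HTSeq 0.6.1. Build, annotation and strandedness were not given in the sources used here. Ambiguous reads and non-unique alignments were not counted in genes, so reads of overlapping or near-identical genes may be lost. Summary lines were left out. Reads outside genes made up 7.00% (liver IR) and 7.52% (liver treated IR) of uniquely aligned reads.

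Libraries were scaled by TMM in edgeR 4.0.16 (R 4.3.3) over 9932 genes kept by filterByExpr in the 6 libraries (factors 0.945 and 1.24 for liver IR and treated IR). CPM are counts divided by the scaled library size. Pairs were compared by scaled ratios with 95% Clopper-Pearson intervals, for genes with 50 or more reads over the pair. A prior count of 2 was added for log2 ratios, and folds used the reads as they are. The ratio script was tested on simulated data. No p-value was computed, as each group is 1 library.

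Members, lists and rules were chosen with earlier results of these data known. The rule for named genes takes, where no ID has a symbol, the first 2 higher and first 2 lower genes by the interval bound nearest to equality. A set of 37 gene lists by symbol could not be read, with 0 IDs matched. The classes by control preparation, the abundance groups and the genes low in liver control were defined after the data were seen. Alternatives were other scalings (DESeq2 1.42.0 size factors, library totals, TMM of the pair), read minimums, fold rules, prior count, thinning of liver IR and leaving out the most abundant gene.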

Additional observations from a re-analysis of the deposited data

Results flagged for a closer look

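Of the 62 genes apart in liver between treated IR and IR with 50 or more reads in hepatocytes, 11 were at least 2-fold apart the other way there. Of the liver higher genes, 6 of 28 (21.4%) were lower in treated hepatocytes, beside 13.1% of all genes read in both preparations. Of the liver lower genes, 5 of 34 (14.7%) were higher there, beside 11.5%. With hepatocyte control in place of hepatocyte IR the number was 5 of 44, beside 3.69% higher and 3.73% lower of 5715 genes. These counts are small, and this contrast of the preparations was not tested. Among the 11 genes was ENSRNOG00000001963, 13.9-fold higher in the treated liver and lower in treated hepatocytes, each from 1 library a side. Alignments at more than 1 site entered no comparison. They were 60.1% of the total in liver IR, above the 46.3% of liver control.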

How the results depend on the processing

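DESeq2 size factors, TMM of the liver pair, thinning of liver IR to the treated depth and leaving out the most abundant gene kept the counts of genes apart within 129 to 134 higher and 50 to 53 lower. Library totals alone gave 438 higher and 12 lower. At least 1 read gave 344 and 157, and at least 200 reads 29 and 18, with other numbers of genes counted (15658 and 4689). A 1.5-fold rule gave 391 and 250, and a 4-fold rule 27 and 1. The share of genes lower in control hepatocytes that were higher in treated liver (6.99%) was 17.0% with library totals. That setting also gave 438 higher genes among all 8676. The share was 10.2% for genes at least 8-fold lower. With 50 or more control reads it was 2.76% of fewer genes (145), beside 0.377% of all genes at that depth. The settings for this share were chosen after seeing the data, and those for the counts of genes apart and for single genes were planned. The 4 genes printed by ID kept their direction in 16 of 16 alternatives, with 3 values past the counting interval. With library totals ENSRNOG00000027784 was at a log2 ratio of -1.63, short of 4-fold. No paired analysis was possible because each group is 1 library. The planned medians of gene lists were not run, as no ID matched a symbol. Depth limits the higher genes most, with a median of 87.5 reads over the pair.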
